A study of Mus musculus with 8 samples.

Results

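MHC class II molecules are the proteins with which dendritic cells, B cells and macrophages show peptides from engulfed material to CD4 T cells. The 8 genes described here encode their chains (H2-Ab1, H2-Aa and H2-Eb1), the invariant chain (Cd74), the peptide-loading helpers (H2-DMa, H2-DMb1 and H2-Oa) and the transactivator that switches the group on (Ciita). The genes were listed with earlier results of these data known, so counts of them below are descriptions. Their probe sets were chosen by name: each probe set whose platform annotation gave 1 of these symbols, or an older alias, was taken. This found 9 of the 12488 probe sets on the array, 2 of them for H2-DMa and 1 for each other gene. Of the 9, 8 passed the filter on dim signals, as did 8150 probe sets in all.

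Single-colour arrays, 8 in all, were hybridised with total RNA of mouse olfactory mucosa, the nasal lining in which the olfactory neurons sit. All mice had both olfactory bulbs removed, per the labels, which cuts off the neurons from the brain region they project to and is followed by their death. The 4 groups of 2 arrays were Ccl3-/- mice injected with CCL3, Ccl3-/- mice injected with carrier, C57BL/6 mice injected with CCL3 and C57BL/6 mice injected with carrier. CCL3, also called MIP-1 alpha, is a chemokine that draws monocytes and other leukocytes, and the series' title asks how it bears on macrophages entering the olfactory epithelium. The labels give no dose, age, time after surgery or number of mice for each array. Nothing states that the 2 arrays of a group came from separate mice, so the p-values rest on a spread between arrays that may be technical only. In RNA of a whole tissue, fewer cells of a type and less RNA in each cell cannot be told apart.

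A class II molecule is a pair of an alpha and a beta chain. In mice the A molecule is made from H2-Aa and H2-Ab1 and the E molecule from H2-Ea and H2-Eb1. The invariant chain Cd74 fills the groove of newly made pairs and leads them to the endosome, where proteases such as cathepsin S trim it. H2-DMa and H2-DMb1 form the DM protein, which removes the last fragment and lets other peptides bind. H2-Oa, with H2-Ob, forms DO, which restrains DM, mainly in B cells. Ciita binds no DNA itself and acts through factors bound at the X and Y boxes of class II promoters, and interferon gamma raises it in many cell types.

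Some of the promoters show this shared design. Windows were read for H2-Aa, H2-Eb1, H2-DMa, H2-DMb1 and H2-Oa only. None was available for H2-Ab1 or Ciita, and Cd74 was left out by choice. The 130 bases before the start site are printed for the 4 members in which both boxes were found. They are RefSeq windows on GRCm38.p6, chromosome 17, read 5′ to 3′ on the strand of the gene: chr17:34287824-34287953 on the minus strand for H2-Aa, and on the plus strand chr17:34305737-34305866 for H2-Eb1, chr17:34153061-34153190 for H2-DMb1 and chr17:34092249-34092378 for H2-Oa. Capitals mark first the X box letters CNNGNAAC and then the Y box letters TGATTGG.
H2-Aa: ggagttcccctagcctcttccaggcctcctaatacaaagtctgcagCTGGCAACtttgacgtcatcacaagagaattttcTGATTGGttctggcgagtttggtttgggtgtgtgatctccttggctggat
H2-Eb1: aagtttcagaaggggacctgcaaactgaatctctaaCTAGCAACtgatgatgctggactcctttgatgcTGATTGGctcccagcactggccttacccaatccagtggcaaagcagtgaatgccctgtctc
H2-DMb1: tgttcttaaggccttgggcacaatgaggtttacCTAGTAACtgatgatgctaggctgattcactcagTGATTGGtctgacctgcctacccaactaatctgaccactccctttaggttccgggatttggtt
H2-Oa: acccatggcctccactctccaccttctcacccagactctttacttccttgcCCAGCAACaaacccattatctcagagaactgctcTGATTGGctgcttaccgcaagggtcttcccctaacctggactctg

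The X letters began 84 bases before the start in H2-Aa, 94 in H2-Eb1, 97 in H2-DMb1 and 79 in H2-Oa. The gap to the Y letters was 26 bases in H2-Aa, H2-DMb1 and H2-Oa and 25 bases in H2-Eb1. The 2 windows of H2-DMa, chr17:34122702-34122831 and chr17:34125388-34125517 on the plus strand, held neither set of letters on the gene's strand. Both lie inside the annotated span of the gene, 34119693 to 34139101, so they precede later starts. The bases before its first start were not read, so whether H2-DMa has the boxes there is not shown. Among the 32851 promoter windows of the same table, each 250 bases before to 50 bases after a start, 39.1% held the X letters and 7.82% the Y letters on either strand. The X letters followed by the Y letters after 10 to 40 bases occurred in 0.244% of them. The letters were chosen after these windows had been read, so the shared spacing is a description. Across all arrays the 4 genes with both boxes did not share one pattern. For H2-Aa, H2-Eb1 and H2-DMb1 this rested on C57BL/6 carrier replicate 1. The correlation r was 0.10 for H2-Aa with H2-Eb1, -0.33 for H2-Eb1 with H2-DMb1 and 0.77 for H2-Aa with H2-DMb1. Without that array the same pairs were at 0.75, 0.70 and 0.68. H2-Oa, which was dim, was then at 0.09 to 0.34 with those genes. Whether the boxes bear on these values was not tested.

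Values are the intensities deposited by the authors, on a linear scale on which all arrays had almost the same trimmed mean. Differences are on the scale log2(intensity + 102.3), which understates those of dim genes, and are given with their standard error from limma. An adjusted p is a limma p adjusted by the Benjamini-Hochberg method over all 8150 probe sets, and 0.05 was its threshold. One array, C57BL/6 carrier replicate 1, was unlike the other 7: its ratio of the 3′ to the 5′ probe set of Gapdh was 2.59, against 0.755 to 1.31 on the others. The same ratio for actin was 1.58 on it, the lowest of the 8 arrays, against 1.61 to 2.17, so the 2 control genes did not point the same way. Its root mean square deviation from the mean of all arrays was 0.521 on the log2 scale, against 0.265 to 0.418. The members' genotype differences after carrier, the counts of members in comparisons with this group and the values of several other genes are therefore also given without either of its arrays. Ccl3 itself read 727 and 730 on arrays labelled Ccl3-/- CCL3, 812 and 804 on Ccl3-/- carrier, 223 and 387 on C57BL/6 CCL3, and 332 and 159 on C57BL/6 carrier. It was thus brighter on every array labelled Ccl3-/-, which goes against those labels if the probe set reads only Ccl3 RNA that the knockout removes. The labels do not say how the gene was altered, and the cause was not tested. Directions between genotypes therefore rest on the labels. The tissue's own markers were present: Omp, the protein of mature olfactory neurons, ranged from 4251 to 21779 and the odorant-binding protein Obp1a from 38330 to 54257, while the basal cell keratins Krt5 and Krt14 were dim on all arrays (38.4 to 239).

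No member passed an adjusted p of 0.05 in any of the 8 comparisons, and neither did any other probe set: the share called was 0% in each. Members are therefore also counted at an unadjusted p under 0.05, beside the share of all probe sets at that level.

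Among the chains, H2-Ab1, the beta chain of the A molecule, gave the clearest separation of the groups. It read 1435 and 1136 on the arrays labelled Ccl3-/- CCL3, and 539 and 604 on those labelled Ccl3-/- carrier. It read 1173 and 1223 on the C57BL/6 CCL3 arrays and 1735 and 1649 on the C57BL/6 carrier arrays. The carrier group labelled Ccl3-/- was thus the lowest and the C57BL/6 carrier group the highest, with the 2 CCL3 groups between them and overlapping each other. After carrier, H2-Ab1 averaged 571 ± 45.7 in Ccl3-/- and 1692 ± 60.6 in C57BL/6 (SD, n = 2 each). The difference was -1.41 ± 0.24 (0.375-fold, unadjusted p = 0.000165, adjusted p = 0.363), which ranked 3 of 8150 by p. After CCL3 the difference between genotypes was 0.09 ± 0.24 (adjusted p = 1.00).

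H2-Eb1, the beta chain of the E molecule, read 2342 and 2120 on Ccl3-/- CCL3, 1611 and 2151 on Ccl3-/- carrier, 2275 and 2367 on C57BL/6 CCL3, and 3845 and 3576 on C57BL/6 carrier. Here the C57BL/6 carrier arrays stood above the other 6, whose values overlapped in part. The genotype difference after carrier was -0.96 ± 0.25 (unadjusted p = 0.00313, adjusted p = 0.363), and after CCL3 it was -0.06 ± 0.25. Its partner H2-Ea was dim, from 19.3 to 241 over the 8 arrays, and did not pass the filter; C57BL/6 mice carry the b haplotype, in which H2-Ea is known to be silent.

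H2-Aa, the alpha chain of the A molecule, read 3062 and 2574 on Ccl3-/- CCL3, 1364 and 1145 on Ccl3-/- carrier, and 2972 and 3209 on C57BL/6 CCL3. On C57BL/6 carrier it read 997 on replicate 1 and 4218 on replicate 2, the lowest and the highest of all 8 values. H2-Ab1, whose product pairs with that of H2-Aa, was high on both of these arrays. The genotype difference of H2-Aa after carrier was -0.69 ± 0.50 (adjusted p = 0.584). Without C57BL/6 carrier replicate 1 it was -1.68 ± 0.26 (adjusted p = 0.195), and without replicate 2 it was 0.30 ± 0.26 (adjusted p = 0.558). Its sign in this comparison was therefore set by which C57BL/6 carrier array was used.

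Cd74, the invariant chain, read 4244 and 5206 on Ccl3-/- CCL3, 3242 and 2798 on Ccl3-/- carrier, and 5677 and 5424 on C57BL/6 CCL3. On C57BL/6 carrier it read 2417 on replicate 1 and 6941 on replicate 2, again both ends of its range. Its genotype difference after carrier was -0.44 ± 0.41, which became -1.18 ± 0.25 without C57BL/6 carrier replicate 1 (adjusted p = 0.209) and 0.31 ± 0.26 without replicate 2 (adjusted p = 0.542). After CCL3 the 2 arrays labelled Ccl3-/- lay below both C57BL/6 arrays, with a difference of -0.23 ± 0.41 (adjusted p = 1.00).

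For H2-DMa, the brighter probe set read 2474 and 2322 on Ccl3-/- CCL3, 1518 and 1260 on Ccl3-/- carrier, 2047 and 2266 on C57BL/6 CCL3, and 1329 and 2341 on C57BL/6 carrier. The genotype difference after carrier was -0.33 ± 0.29, and it was -0.72 ± 0.25 without C57BL/6 carrier replicate 1 and 0.05 ± 0.25 without replicate 2. The dimmer probe set of H2-DMa read 574 on Ccl3-/- CCL3 replicate 1 and between 145 and 236 on the other 7 arrays. It passed the brightness limit of 362.7 on 1 array only and was not tested, so the 2 probe sets cannot be set against each other. H2-DMb1, the partner of H2-DMa, read 1394 and 1146 on Ccl3-/- CCL3, 1086 and 1094 on Ccl3-/- carrier, 1505 and 1081 on C57BL/6 CCL3, and 511 and 1574 on C57BL/6 carrier. Apart from the 511 of C57BL/6 carrier replicate 1, these values lay within 1081 to 1574, and no pair of groups differed by more than 0.44 ± 0.41 with all arrays. Its genotype difference after carrier was -0.49 ± 0.29 without C57BL/6 carrier replicate 1 and 0.96 ± 0.29 without replicate 2.

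H2-Oa, of the DO protein, was dim, above the limit on 5 of 8 arrays. It read 386 and 167 on Ccl3-/- CCL3, 307 and 389 on Ccl3-/- carrier, 381 and 382 on C57BL/6 CCL3, and 110 and 382 on C57BL/6 carrier. Its groups overlapped in all 4 comparisons of 2 groups. Its genotype difference after carrier was -0.11 ± 0.45 without C57BL/6 carrier replicate 1 and 1.08 ± 0.46 without replicate 2. Ciita read 658 and 541 on Ccl3-/- CCL3, 642 and 307 on Ccl3-/- carrier, 609 and 623 on C57BL/6 CCL3, and 572 and 429 on C57BL/6 carrier. The transactivator differed between genotypes by -0.12 ± 0.34 after carrier and by -0.04 ± 0.34 after CCL3, with groups that overlapped in both. After carrier it was at 0.06 ± 0.40 without C57BL/6 carrier replicate 1 and at -0.29 ± 0.40 without replicate 2.

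**Figure D1:**
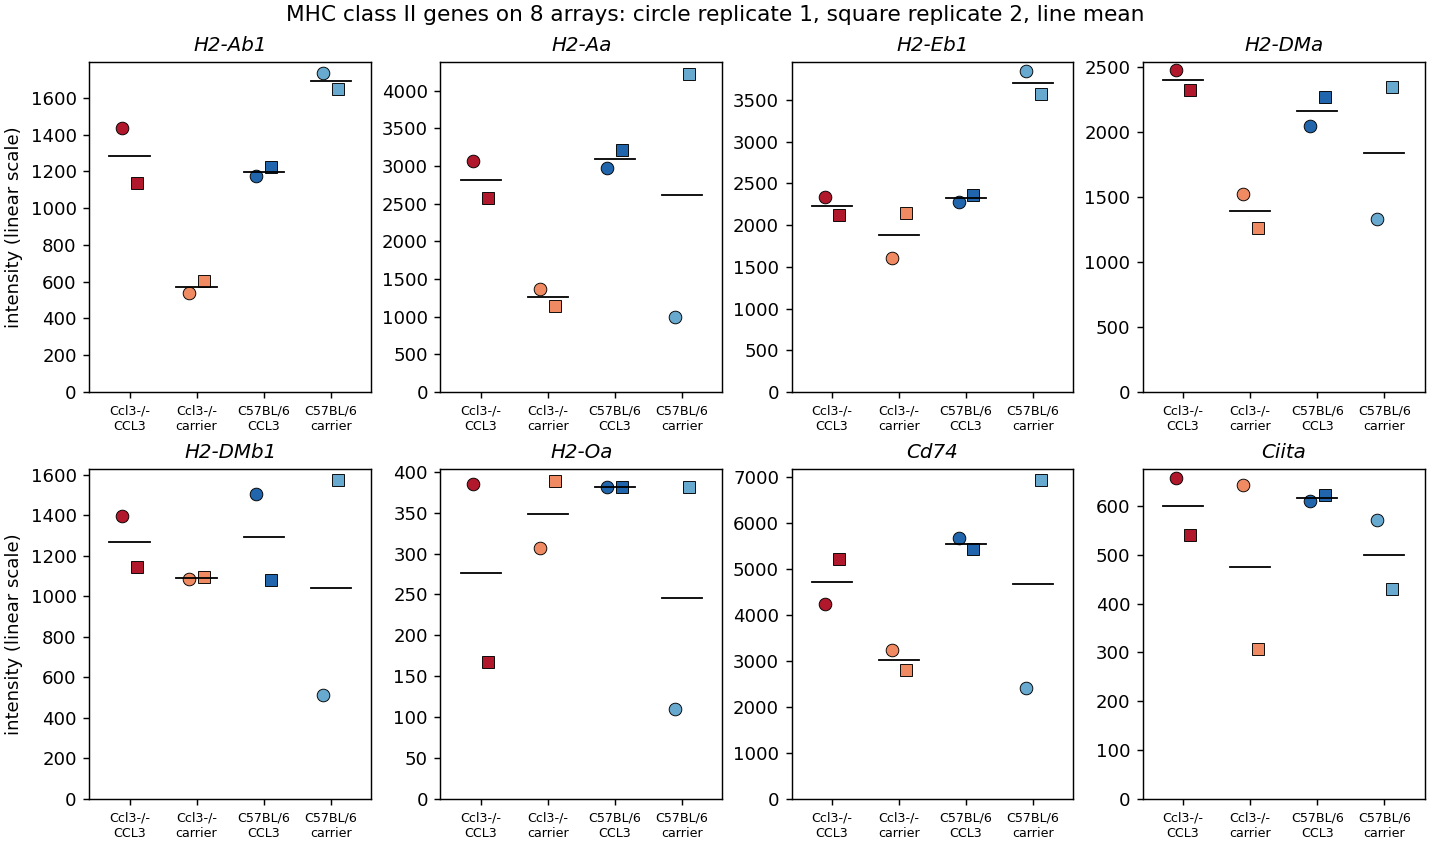
Intensity (linear scale, y axis) of the brightest probe set of each of the 8 genes in the 4 groups (x axis), with a circle for replicate 1, a square for replicate 2 and a line at the mean of 2 arrays. H2-Ab1 lies at 539 and 604 on Ccl3-/- carrier against 1735 and 1649 on C57BL/6 carrier, while H2-Aa spreads from 997 to 4218 within C57BL/6 carrier.

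The genotype comparison after carrier asks what differed in the bulbectomised mucosa between the genotypes when no CCL3 was injected. Of the 8 members, 6 lay lower on arrays labelled Ccl3-/- and 2 higher, with a median difference of -0.38, against -0.03 over all probe sets tested. At an unadjusted p under 0.05, 2 of 8 were lower (H2-Ab1 and H2-Eb1) and 0 of 8 higher, while 6.40% of all probe sets were lower and 5.03% higher. The arrays of the 2 groups did not overlap for the same 2 genes, both lower, where 22.9% of all probe sets were lower without overlap and 15.6% higher. That share of members is thus close to the share of all probe sets on the second count. Leaving out either C57BL/6 carrier array leaves a single one in that group. H2-Ab1 kept its size in both fits, at -1.38 ± 0.27 without replicate 1 and -1.45 ± 0.27 without replicate 2. H2-Eb1 was at -0.90 ± 0.27 and -1.01 ± 0.27. The other members were not as stable. Without C57BL/6 carrier replicate 1, 5 of 8 members were lower at an unadjusted p under 0.05 (H2-Aa, H2-Ab1, Cd74, H2-Eb1 and H2-DMa) and 0 of 8 higher, against 7.04% and 5.66% of all probe sets, and the members' median was -0.81. Without replicate 2, 2 of 8 were lower, and H2-DMb1 (0.96 ± 0.29) and H2-Oa (1.08 ± 0.46) were higher, against 8.72% and 11.4% of all probe sets, with a median of 0.18.

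**Figure D2:**
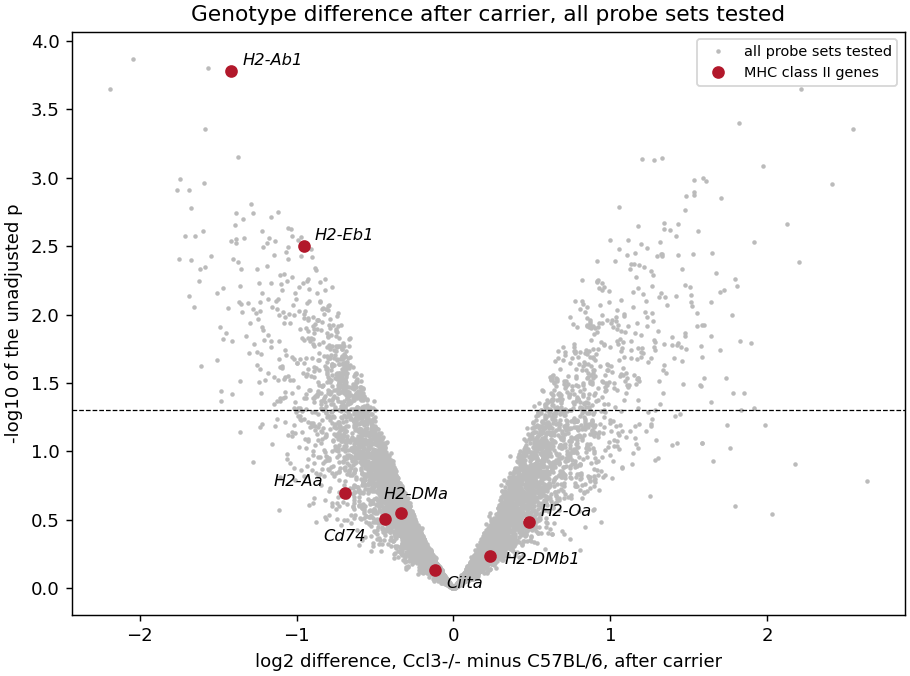
Difference Ccl3-/- minus C57BL/6 after carrier (x axis, log2) and -log10 of the unadjusted limma p (y axis) for all 8150 probe sets tested (grey) and the class II genes (red), with a dashed line at the level of 0.05. H2-Ab1 at -1.41 and H2-Eb1 at -0.96 lie above the line, and the other 6 genes lie below it.

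After CCL3 injection in both genotypes the members' differences ran from -0.42 for H2-Oa to 0.15 for H2-DMa, with 6 lower and 2 higher and a median of -0.05, against 0.02 over all probe sets. None of the 8 reached an unadjusted p under 0.05, where 0.663% of all probe sets were lower and 0.822% higher. Cd74 was lower and H2-DMa higher without overlap between the arrays, and 12.9% of all probe sets were lower and 16.5% higher in this way. With standard errors of 0.24 to 0.50, these values do not show that the genotypes were alike.

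Injection of CCL3 into mice labelled Ccl3-/- asks whether the missing chemokine, given from outside, changes the tissue. H2-Ab1 averaged 1286 ± 211 after CCL3 and 571 ± 45.7 after carrier (SD, n = 2 each), a difference of 1.04 ± 0.24 (2.05-fold, unadjusted p = 0.00161, adjusted p = 0.722). H2-Aa differed by 1.11 ± 0.50 (adjusted p = 0.940), H2-DMa by 0.75 ± 0.29 (adjusted p = 0.940) and Cd74 by 0.63 ± 0.41 (adjusted p = 0.952). Of the 8 members 7 lay higher and 1, H2-Oa, lower, with a median of 0.48, against 0.03 over all probe sets. At an unadjusted p under 0.05, 2 of 8 were higher (H2-Ab1 and H2-DMa) and 0 of 8 lower, against 2.77% and 2.12% of all probe sets. The CCL3 arrays lay above both carrier arrays for 5 of 8 members (H2-Ab1, H2-Aa, H2-DMa, H2-DMb1 and Cd74) and below them for none, against 22.9% of all probe sets above and 16.0% below. The differences use no C57BL/6 array, but the spread is shared by all groups, so 4 of 8 members were higher and 0 lower without either C57BL/6 carrier array (H2-Ab1, H2-Aa, H2-DMa and Cd74), against 4.64% of all probe sets higher in both fits and 3.06% and 3.14% lower. Only H2-Ab1 was higher, and none lower, without Ccl3-/- CCL3 replicate 1 (0.724% of all probe sets higher), Ccl3-/- CCL3 replicate 2 (1.87%) or Ccl3-/- carrier replicate 2 (2.42%). Over the 4 fits without an array labelled Ccl3-/-, H2-Ab1 was at 0.88 to 1.19.

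In C57BL/6 mice the 2 beta chains lay lower after CCL3 and the other 6 members higher, though none of these passed. H2-Eb1 differed by -0.65 ± 0.25 (unadjusted p = 0.0245, adjusted p = 0.911) and H2-Ab1 by -0.47 ± 0.24 (adjusted p = 0.911), while H2-Oa was at 0.59 ± 0.47, H2-Aa at 0.55 ± 0.50 and Cd74 at 0.42 ± 0.41. The median was 0.35, against -0.02 over all probe sets. At an unadjusted p under 0.05, 1 of 8 was lower and 0 of 8 higher, against 2.32% and 1.98% of all probe sets. The CCL3 arrays lay below both carrier arrays for H2-Ab1 and H2-Eb1 and above both for Ciita, against 18.1% of all probe sets below and 12.0% above. Without C57BL/6 carrier replicate 1 the median was -0.30 and no member reached that level in either direction (3.29% of all probe sets were lower and 2.70% higher), with H2-Eb1 at -0.60 ± 0.27 and H2-Ab1 at -0.43 ± 0.27. No member reached it without either C57BL/6 CCL3 array either. Without replicate 2 the median was 0.91, with 1 of 8 lower and 5 of 8 higher, against 6.65% and 10.4% of all probe sets, and H2-Aa at 1.54 ± 0.26 passed (adjusted p = 0.0463), while H2-Eb1 was at -0.70 ± 0.27 and H2-Ab1 at -0.50 ± 0.27. The median in C57BL/6 mice thus changed sign with the carrier array that was left out.

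**Figure D3:**
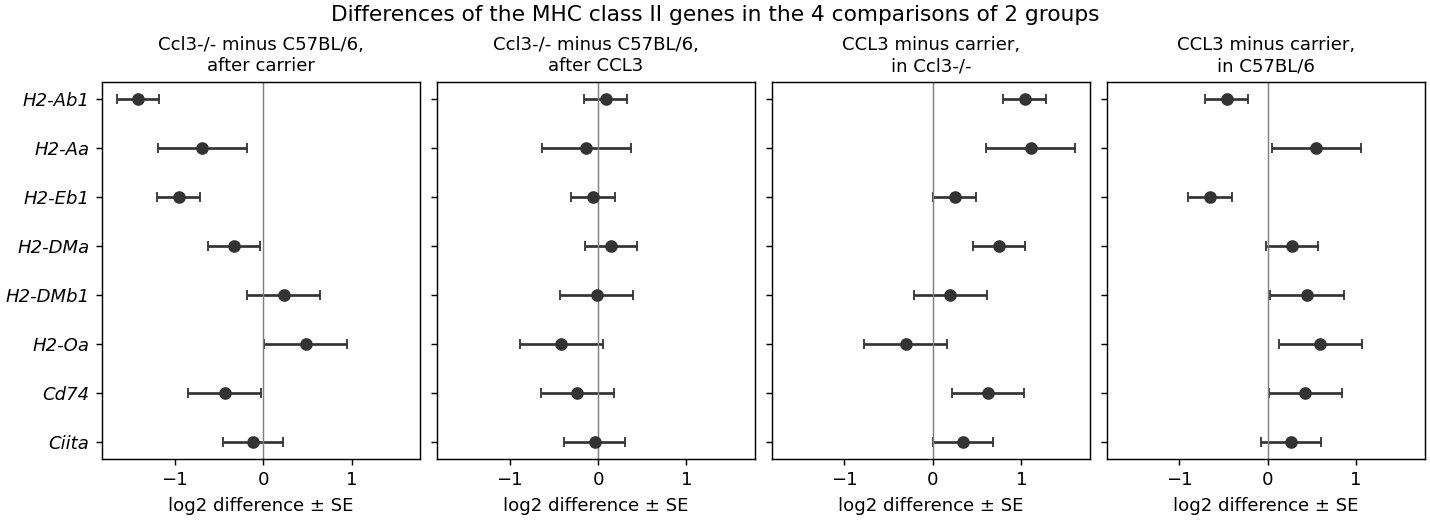
Difference of each of the 8 genes on the log2 scale (x axis) with its limma standard error (bars), in the 4 comparisons of 2 groups, each panel with 2 arrays a side. H2-Ab1 is at -1.41 between genotypes after carrier, 0.09 after CCL3, 1.04 for CCL3 in Ccl3-/- and -0.47 for CCL3 in C57BL/6.

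The difference between the 2 injection effects, CCL3 against carrier in Ccl3-/- minus the same in C57BL/6, was 1.50 ± 0.34 for H2-Ab1 (unadjusted p = 0.00137, adjusted p = 0.908) and 0.90 ± 0.35 for H2-Eb1 (unadjusted p = 0.0276, adjusted p = 0.908). Both stayed near these values without C57BL/6 carrier replicate 1 (1.47 ± 0.35 and 0.85 ± 0.35) and without replicate 2 (1.54 ± 0.35 and 0.95 ± 0.35). H2-Aa was at 0.56 ± 0.71, and at 1.54 ± 0.33 without replicate 1 and -0.43 ± 0.34 without replicate 2. Over the 8 members the median was 0.34, against 0.04 over all probe sets, with 2 of 8 higher and 0 of 8 lower at an unadjusted p under 0.05, against 3.19% and 1.87% of all probe sets. The median was 0.86 without C57BL/6 carrier replicate 1, and 5 of 8 were higher and 0 lower, against 4.99% and 3.69% of all probe sets. Without replicate 2 the median changed sign to -0.17, and 2 of 8 were higher (H2-Ab1 and H2-Eb1) and 2 lower (H2-DMb1 at -0.97 ± 0.38 and H2-Oa at -1.49 ± 0.59), against 5.84% and 6.92%. Only H2-Ab1 was higher, and none lower, without any 1 of the 4 CCL3 arrays or without Ccl3-/- carrier replicate 1, where 1.13% to 3.80% of all probe sets were higher.

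Averaged over both injections, the genotype difference was -0.66 ± 0.17 for H2-Ab1 and -0.51 ± 0.17 for H2-Eb1 (adjusted p = 0.808 for both). These were the 2 of 8 lower at an unadjusted p under 0.05, with 0 of 8 higher, against 2.90% and 3.03% of all probe sets, and the members' median was -0.21, beside -0.01 over all probe sets. Without C57BL/6 carrier replicate 1 the median was -0.38, H2-Ab1 was at -0.65 ± 0.17 and H2-Eb1 at -0.48 ± 0.17, and 4 of 8 were lower and 0 higher, against 4.20% and 4% of all probe sets. Without replicate 2 the median was 0.06, H2-Ab1 was at -0.68 ± 0.17 and H2-Eb1 at -0.53 ± 0.17, and these 2 were lower and 1 of 8, H2-DMb1, higher, against 5.45% and 8.99%. Only H2-Ab1 was lower without Ccl3-/- CCL3 replicate 2 (1.30% of all probe sets lower) or Ccl3-/- carrier replicate 1 (4.06%). Averaged over both genotypes, the CCL3 difference was 0.83 ± 0.36 for H2-Aa and 0.51 ± 0.21 for H2-DMa (adjusted p = 0.969 for both), 2 of 8 higher and 0 of 8 lower against 2.36% and 2.17% of all probe sets. Without C57BL/6 carrier replicate 2, 4 of 8 were higher and 0 lower, against 9.82% and 5.89% of all probe sets, and H2-Aa passed at 1.32 ± 0.17 (adjusted p = 0.0421). Without Ccl3-/- carrier replicate 1, 2 of 8 were higher (H2-DMa and Ciita) and 0 lower, against 2.80% and 2.72%. No member reached that level in the other 6 fits, among them the one without C57BL/6 carrier replicate 1, where H2-Aa was at 0.33 ± 0.17 and H2-DMa at 0.32 ± 0.16 and 2.98% of all probe sets were higher. Mice labelled Ccl3-/- and given CCL3, set against carrier-injected C57BL/6 mice, had H2-Eb1 at -0.71 ± 0.25 (adjusted p = 0.831) and H2-Ab1 at -0.38 ± 0.24 (adjusted p = 0.831), with both genes' arrays lying below both C57BL/6 carrier arrays, as did 19.0% of all probe sets, while 16.2% lay above. In that comparison 1 of 8 members was lower and 0 of 8 higher at an unadjusted p under 0.05, against 2.44% and 3.30% of all probe sets, and no member reached that level without either Ccl3-/- CCL3 array. Without C57BL/6 carrier replicate 1 the median was -0.38, with H2-Eb1 at -0.66 ± 0.27, and 1 of 8 was lower and 0 higher, against 3.04% and 3.15%. Without replicate 2 the median was 0.79, with H2-Eb1 at -0.76 ± 0.27, and 1 of 8 was lower and 4 higher (H2-Aa, H2-DMa, H2-DMb1 and Cd74), against 6.79% and 12.0%, and H2-Aa passed at 1.40 ± 0.26 (adjusted p = 0.0434). These comparisons share arrays with those above and add no separate evidence. Their fits without C57BL/6 carrier replicate 2 rest on replicate 1 alone for that group.

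Across the 8 arrays the genes fell into patterns that did not follow the pairs their proteins form. On the log2 scale, H2-Aa went with Cd74 (r = 0.96, rho = 0.88) and with H2-DMa (r = 0.95, rho = 0.81), while H2-Ab1 went with H2-Eb1 (r = 0.82, rho = 0.95). The r of H2-Aa with H2-Ab1 was 0.47 and with H2-Eb1 0.10. Leaving out C57BL/6 carrier replicate 1 gave 0.97 and 0.75, so the split rests on that array. On it H2-Ab1 and H2-Eb1 lay 0.60 and 0.63 above their means over all arrays, whereas H2-Aa lay at -1.06, H2-Oa at -0.91, Cd74 at -0.79 and H2-DMa at -0.47, and H2-DMb1 had its lowest value. These correlations are descriptions over 8 arrays of 4 groups, which share each array's scaling. By the same measure the probe sets most like H2-Ab1, of 7349 named ones, were Smarcd2, Pagr1a and Bag2 (r = 0.96 each) and Nr5a1 and Coq4 (r = 0.95 each), and 56 had an r over 0.9.

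**Figure D4:**
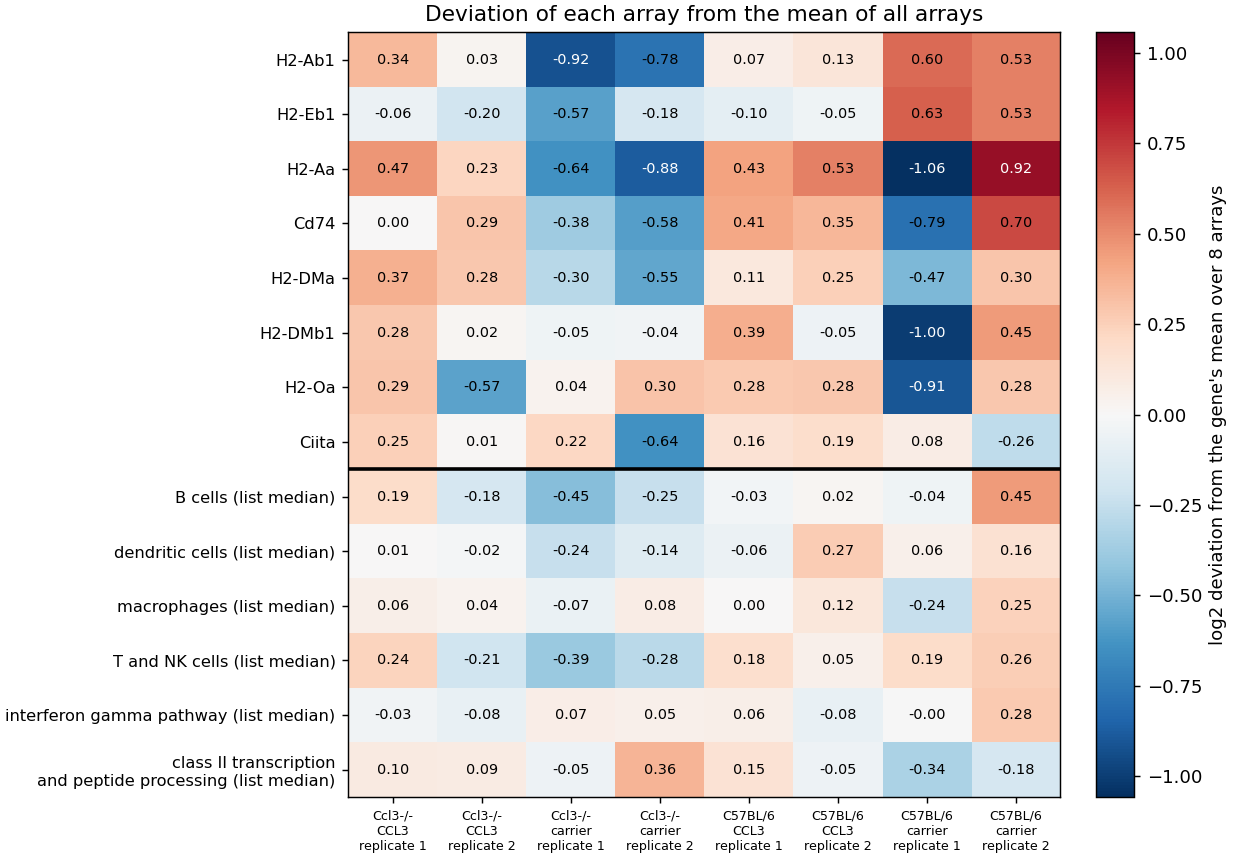
Deviation of each array (columns) from the gene's mean over 8 arrays (log2, colour and printed value) for the 8 class II genes, and below the black line the median deviation over the tested genes of 6 lists. On C57BL/6 carrier replicate 1, H2-Ab1 (0.60) and H2-Eb1 (0.63) are above their mean, while H2-Aa (-1.06) and Cd74 (-0.79) are below it.

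Other genes of the class II family and pathway were read from lists of such genes. Over all probe sets, 6.40% were lower and 5.03% higher at an unadjusted p under 0.05 between genotypes after carrier. For CCL3 in Ccl3-/- these shares were 2.12% and 2.77%. With lists this short, counts of 1 or 2 genes are descriptions only. Of 4 further chain and chaperone genes only H2-DMb2 passed the filter, with a genotype difference after carrier of 0.69 ± 0.37 and a CCL3 difference of 1.08 ± 0.37 in C57BL/6 (adjusted p = 0.911), while H2-Ea, H2-Eb2 and H2-Ob did not pass. These 2 differences of H2-DMb2 were 0.26 ± 0.36 and 0.66 ± 0.36 without C57BL/6 carrier replicate 1, and without replicate 2 they were 1.11 ± 0.37 and 1.50 ± 0.37. Of 10 tested genes for class II transcription and peptide processing, 2 were higher and 0 lower at an unadjusted p under 0.05 on arrays labelled Ccl3-/- after carrier. They were Ifi30 (1.30 ± 0.34, adjusted p = 0.363), the thiol reductase that opens disulphide bonds of antigens, and Nfyb (0.85 ± 0.26, adjusted p = 0.375), a subunit of the factor that binds the Y box. Ifi30 was at 0.91 ± 0.35 without C57BL/6 carrier replicate 1 and 1.69 ± 0.35 without replicate 2, and Nfyb at 0.73 ± 0.29 and 0.98 ± 0.29. The counts were 3 higher and 1 lower without replicate 1 and 2 higher and 1 lower without replicate 2. For CCL3 in Ccl3-/- 0 of the 10 reached that level, and Ifi30 was at -0.67 ± 0.34. The direction of Ifi30 was thus opposite to that of H2-Ab1 in both comparisons. Of 12 tested genes of the interferon gamma pathway, 0 reached that level between genotypes after carrier, where Irf8 was at -0.46 ± 0.27 and Socs1 at -0.70 ± 0.41. The count was also 0 without C57BL/6 carrier replicate 1, while 1 of 12 was higher without replicate 2. For CCL3 in Ccl3-/-, 2 of the 12 were lower, the interferon-induced GTPases Iigp1 (-1.89 ± 0.47, adjusted p = 0.722) and Gbp2 (-0.88 ± 0.33, adjusted p = 0.940). Ifng itself read 5.2 to 36.8, below the filter on every array. Of 7 tested neighbours of the class II genes on the chromosome, 0 reached that level between genotypes after carrier and 6 of 7 lay lower, among them the peptide transporter genes Tap2 (-0.59 ± 0.29) and Tap1 (-0.33 ± 0.24). Both counts were the same without either C57BL/6 carrier array, with Tap2 at -0.68 ± 0.34 and -0.51 ± 0.34 without replicate 1 and replicate 2.

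Markers of the cells that carry class II are given here because some moved with the same groups, and their part in the class II values was not tested. At an unadjusted p under 0.05, 6.40% of all probe sets were lower and 5.03% higher after carrier. For CCL3 in Ccl3-/- 2.12% were lower and 2.77% higher. Shares for the fits without a C57BL/6 carrier array are given above. Counts of 1 or 2 genes on such short lists are descriptions only. B cell markers had 3 of 8 tested genes lower at an unadjusted p under 0.05 on arrays labelled Ccl3-/- after carrier: Spib at -1.23 ± 0.38, Ms4a1 at -0.84 ± 0.28 and Cd79a at -0.81 ± 0.36 (adjusted p = 0.375, 0.377 and 0.437). The median of the 8 was -0.62, and 7 of them lay lower. Again 3 of 8 were lower without C57BL/6 carrier replicate 1, with a median of -0.66, whereas without replicate 2 only Spib was lower (-1.10 ± 0.48), the median was -0.31 and Cd79a was at -0.31 ± 0.32. The summed intensity of the 15 B cell markers on the array was 7088 to 8488 on Ccl3-/- CCL3, 7123 to 7683 on Ccl3-/- carrier, 8481 to 8606 on C57BL/6 CCL3 and 7677 to 11424 on C57BL/6 carrier. Of 5 tested dendritic cell markers, 1 was lower after carrier, Ccl22 at -0.84 ± 0.26 (adjusted p = 0.375), with Itgax at -0.59 ± 0.28. Ccl22 was at -0.95 ± 0.29 without C57BL/6 carrier replicate 1 and at -0.72 ± 0.29 without replicate 2. The sum of the 8 dendritic cell markers on the array was 4993 to 5269 on Ccl3-/- CCL3, 4299 to 4637 on Ccl3-/- carrier, 5047 to 6029 on C57BL/6 CCL3 and 5031 to 5772 on C57BL/6 carrier, lowest on Ccl3-/- carrier as H2-Ab1 was. For CCL3 in Ccl3-/-, Ccl22 was at 0.95 ± 0.26 (adjusted p = 0.748), the 1 of 5 dendritic markers that was higher, and 0 of 8 B cell markers reached that level. Of 12 tested macrophage markers, 7 lay higher and 5 lower on arrays labelled Ccl3-/- after carrier. At an unadjusted p under 0.05, 2 were lower and 0 higher, C1qc at -0.66 ± 0.23 and the fractalkine receptor Cx3cr1 at -0.68 ± 0.27. The related C1qa and C1qb overlapped between these groups. C1qa read 3155 and 4299 on Ccl3-/- carrier and 1665 and 4707 on C57BL/6 carrier, and C1qb 2809 and 4221 against 1235 and 4153. The median of the 12 was 0.19. That median was -0.27 without C57BL/6 carrier replicate 1, with 2 of 12 lower and 0 higher, and without replicate 2 it was 0.22, with 1 lower (C1qc) and 4 higher. The sum of the 14 macrophage markers on the array was 35800 to 38345 on Ccl3-/- CCL3, 32710 to 37564 on Ccl3-/- carrier, 35119 to 38082 on C57BL/6 CCL3 and 27878 to 38455 on C57BL/6 carrier, with the lowest value on C57BL/6 carrier replicate 1. Of 4 tested T and NK cell markers 1 was lower, Thy1 at -0.99 ± 0.44 (-1.08 ± 0.55 without C57BL/6 carrier replicate 1 and -0.90 ± 0.55 without replicate 2, neither at that level), and of 8 pan-leukocyte genes 0 reached that level, with a median of -0.07. Outside the cells that present antigen, all 5 tested red blood cell genes were higher after CCL3 in Ccl3-/- at an unadjusted p under 0.05, with a median of 1.20 (Hbb-b2 at 1.20 ± 0.25, adjusted p = 0.722), and the sum of the 6 on the array was 85274 to 90773 on Ccl3-/- CCL3 and 40648 to 47553 on Ccl3-/- carrier. Of 10 tested neutrophil genes, 3 were higher and 0 lower on arrays labelled Ccl3-/- after carrier, with sums over 13 genes of 125284 to 177805 on Ccl3-/- carrier and 90824 to 101543 on C57BL/6 carrier. The neutrophil count was again 3 higher and 0 lower without C57BL/6 carrier replicate 1, and without replicate 2 it was 1 higher and 0 lower. Of 4 tested plasma cell markers and 4 tested monocyte markers, 0 reached an unadjusted p under 0.05 after carrier, with medians of -0.41 and -0.28. Of 2 tested genes for costimulation and antigen presenting cell maturation, 0 reached it after carrier. For CCL3 in Ccl3-/-, 1 of these 2 was lower, Relb at -0.78 ± 0.34 (adjusted p = 0.940), opposite to H2-Ab1. The other, Fscn1, was at 0.55 ± 0.28. No marker on any of these lists was at 0 on any array.

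Among genes of the olfactory mucosa itself, Neurod1 moved with the same groups, and its part in the class II values was not tested. The list as a whole did not: after carrier, 4 of its 8 tested genes lay higher and 4 lower on arrays labelled Ccl3-/-, with a median of -0.11. Neurod1, a transcription factor of neuronal precursors, read 394 and 467 on Ccl3-/- CCL3, 147 and 188 on Ccl3-/- carrier, 397 and 425 on C57BL/6 CCL3, and 516 and 960 on C57BL/6 carrier. Its groups thus stood in the same order as those of H2-Ab1, with Ccl3-/- carrier lowest, C57BL/6 carrier highest and the CCL3 groups overlapping between them. The genotype difference of Neurod1 after carrier was -1.59 ± 0.35 (adjusted p = 0.363), and it was -1.98 ± 0.35 without C57BL/6 carrier replicate 1 and -1.20 ± 0.36 without replicate 2. Cnga2, a channel subunit of odour transduction, was at 0.81 ± 0.35 after carrier. Of the 8 tested genes on this list, 1 was lower (Neurod1) and 1 higher (Cnga2) at an unadjusted p under 0.05 after carrier, against 6.40% and 5.03% of all probe sets. The counts were 2 lower and 0 higher without C57BL/6 carrier replicate 1, and 2 lower and 1 higher without replicate 2. For CCL3 in Ccl3-/-, 2 of the 8 were higher and 0 lower, against 2.77% and 2.12% of all probe sets. They were Neurod1 at 0.98 ± 0.35 and Gap43, a protein of growing axons, at 1.00 ± 0.43 (adjusted p = 0.940 for both). In C57BL/6 0 of the 8 reached that level, with Neurod1 at -0.66 ± 0.35, and the interaction of Neurod1 was 1.64 ± 0.50 (adjusted p = 0.908).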

How the data were processed

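Total RNA of olfactory mucosa was measured on arrays in 4 groups of 2, which the titles name. The authors' deposited values are one intensity for each probe set and array. They had been scaled already, by a method not given in the sources used here, since trimmed means of the arrays lay within 0.00434% of their average. Gene names came from the platform annotation (10855 of 12488 probe sets with 1 symbol, 396 with several and not named, 1237 with none). The probe set listed under both H2-DMb1 and H2-DMb2 was thus not used.

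The log2 scale was computed from the deposited intensities after adding 102.3, their 20th percentile. Probe sets with at least 2 arrays above 362.7 (the 40th percentile) were tested, 8150 in all, without 66 control probe sets. The 4 groups were fitted together in limma 3.58.1 under R 4.3.3, with 4 residual degrees of freedom, an intensity trend and Benjamini-Hochberg adjustment over all 8150. The brightest probe set stood for a gene. The members and lists were chosen with earlier results of these data known. Of each list, differences were printed for at most the 3 genes with the smallest p in a comparison. Genes given by intensity alone, such as C1qa and C1qb beside C1qc, were named outside that rule. Alternatives were other normalizations, pseudocounts, filters and probe set choices, no intensity trend, a replicate block, only the groups compared, and each array left out. The code was tested on simulated data. The number of arrays limits the precision. Promoter windows came from RefSeq tables on GRCm38.p6, where windows for H2-Aa, H2-Eb1, H2-DMa, H2-DMb1 and H2-Oa were read.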

Additional observations from a re-analysis of the deposited data

Results flagged for a closer look

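Single arrays stood far from the others in 5 cases, judged by the gap to the nearest value as a share of the range of 4 arrays. Chance alone passes the limit used in about 1 of 20 sets of like arrays. Here each set pooled different groups, and each probe set was read in several overlapping sets, so that rate does not hold. H2-Aa read 4218 on C57BL/6 carrier replicate 2, against 997 to 1364 on the other 3 carrier arrays of either genotype. H2-Oa read 110 on C57BL/6 carrier replicate 1, against 381 to 382 on the other 3 C57BL/6 arrays, and 167 on Ccl3-/- CCL3 replicate 2, against 381 to 386 on the other 3 CCL3 arrays. The dimmer H2-DMa probe set read 574 on Ccl3-/- CCL3 replicate 1, against 163 to 175 on the other 3 arrays labelled Ccl3-/- and 145 to 218 on the other 3 CCL3 arrays, and its brighter probe set showed no such gap. The effect of CCL3 differed between the genotypes by 1.50 for H2-Ab1 and 0.90 for H2-Eb1, the interaction of the limma fit, without passing adjustment over all probe sets (adjusted p = 0.908 for both).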

How the results depend on the processing

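The members' medians kept their sign in all 8 comparisons under every alternative that kept all arrays, and moved by less than the spread between replicates. The count of members at an unadjusted p under 0.05 was 1 for the CCL3 average with quantile normalization, cyclic loess or no intensity trend, and 1 for the interaction with one median per array. With only the groups compared it was 4 for CCL3 in Ccl3-/- and 0 for CCL3 in C57BL/6. The share of all probe sets at that level was not computed for these alternatives, so their counts cannot be set against it. Leaving out 1 array at a time moved the members' median from -0.81 to 0.18 for genotype after carrier, from -0.30 to 0.91 for CCL3 in C57BL/6, from -0.17 to 0.86 for the interaction and from -0.38 to 0.79 for Ccl3-/- CCL3 against C57BL/6 carrier. Both ends of each range came from leaving out a C57BL/6 carrier array. The counts at an unadjusted p under 0.05, in either direction, then ran from 2 to 5, 0 to 6, 1 to 5 and 0 to 5 in those comparisons, from 1 to 4 for CCL3 in Ccl3-/- and the genotype average, and from 0 to 4 for the CCL3 average. Counts past an adjusted p of 0.05 ran from 0 to 1 for genotype after carrier (H2-Ab1), and for CCL3 in C57BL/6, the CCL3 average and Ccl3-/- CCL3 against C57BL/6 carrier (H2-Aa in each), all without C57BL/6 carrier replicate 2. Over all probe sets 110, 73, 23 and 131 passed in these fits, against 0 with all arrays. In these fits C57BL/6 carrier replicate 1 stood alone for its group, and the cause was not tested. Replicate numbers did not pair the arrays (r of deviations -0.158 to 0.178 between groups), and with a replicate block the median for genotype after carrier stayed at -0.38. The 2 arrays in each group limit what could be detected.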
